A study of Homo sapiens with 6 samples.

Results

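The insulin-like growth factor (IGF) system was examined through 10 genes of the 60623 in the deposited expression table: the growth factor gene IGF2, the receptor genes IGF1R, IGF2R and INSR, and the binding protein genes IGFBP2 to IGFBP7. The rule is by gene name. RNA had been sequenced from LX2, a human hepatic stellate line in established culture, kept with 2% fetal bovine serum and transfected for 36 h. In 3 libraries the cells received the control siRNA siNC (genotype label WT), and in 3 the siRNA siSHMT2 (genotype label SHMT2 knockdown). The labels do not say whether the replicates were separate cultures, so a p-value here reflects the spread among these 6 libraries and that spread may be technical. All libraries are of 1 cell line, and a single siRNA name stands for the knockdown. In bulk RNA of this kind, fewer cells carrying a transcript and less of it per cell cannot be told apart.

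IGF1 and IGF2 are secreted growth factors that signal through the receptor tyrosine kinase IGF1R, and IGF2 also binds an isoform of the insulin receptor INSR. IGF2R, the cation-independent mannose 6-phosphate receptor, takes IGF2 up for degradation and sorts lysosomal enzymes. The IGF-binding proteins hold the ligands outside the cell, prolong or block their action, and are cut by secreted proteases. In the liver, hepatocytes are a main source of circulating IGF1, and stellate cells secrete binding proteins.

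LX2 cells in these libraries carried a narrow IGF profile. IGFBP4 and IGFBP6 transcripts were abundant, the other binding proteins and the receptors were low, and reads of the ligand gene IGF2 were almost absent. After siSHMT2, IGFBP4 rose and was the sole member that passed the test. IGFBP3 and IGFBP5 were lower in every siSHMT2 library without passing it, and neither tested receptor, IGF1R or IGF2R, passed it.

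Libraries held 14722344 to 15669139 reads, recovered from the FPKM values (read counts scaled to gene length and library size). SHMT2, the mitochondrial serine hydroxymethyltransferase, was at 40.8, 56.3 and 45.1 FPKM in siNC and 2.25, 2.10 and 2.42 in siSHMT2, which left 4.77% of the control mean. It fell by 3.88 on the log2 scale (SE 0.13, limma adjusted p = 2.08e-05). Of 11 stellate and mesenchymal markers, 8 had a mean of at least 1 FPKM, while the desmin gene DES and the smooth muscle actin gene ACTA2 were below it and LRAT, the retinol esterifying enzyme of quiescent stellate cells, was listed at 0 in all libraries. None of 6 hepatocyte and 5 endothelial markers reached a mean of 1 FPKM, while 1 of 5 macrophage markers (CD14) and 1 of 4 epithelial markers (KRT7) did. The summed stellate list ranged from 1868 to 2757 FPKM among siNC libraries and from 1448 to 1664 among siSHMT2 libraries, without overlap. Of its 8 tested genes, the intermediate filament gene VIM alone passed the test (log2 fold change -0.71, limma adjusted p = 0.0191). Over all genes tested, 9.85% passed by limma as lower and 6.07% as higher. Means were 823 FPKM in siNC and 501 in siSHMT2 for VIM, and 990.4 and 654 for TIMP1, whose libraries overlapped. COL1A2 (0.22) and COL3A1 (0.14) had positive log2 fold changes without passing. The remaining tested genes had negative ones without passing: TIMP1 (-0.53), THY1 (-0.47), PDGFRB (-0.20), COL1A1 (-0.10) and SPARC (-0.082). The VIM and THY1 libraries did not overlap between the groups, with siSHMT2 lower, as in 18.6% of all genes tested. The limma adjusted p of THY1 was 0.0697. The part of these levels in the differences of the IGF genes was not tested.

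Promoter windows of 8 of the 10 genes were found in RefSeq (GRCh38.p14). Each window runs from 250 bases before a transcription start site to 50 after it. They were searched for the TATA-box word TATANA on both strands (TNTATA on the other). It was present in 2 of the 10 windows of these genes, those of IGFBP4 and IGFBP3, against 19.0% of all 35116 windows. In both genes it began 35 to 25 bases before the start on the gene's strand, as it did in 3.12% of all windows. The last 45 bases before the start are shown for these 2 genes, with the word in capitals, and for IGFBP6 and IGF1R, the other abundant binding protein and the signalling receptor, which lack the word. A match is a description of the letters and not a tested element.

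IGFBP4 (chr17:40443405-40443449, + strand): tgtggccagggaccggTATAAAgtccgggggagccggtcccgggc
IGFBP3 (chr7:45921273-45921317, - strand): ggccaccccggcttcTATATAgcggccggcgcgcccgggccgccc
IGFBP6 (chr12:53097622-53097666, + strand): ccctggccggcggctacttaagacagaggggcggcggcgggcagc
IGF1R (chr15:98648494-98648538, + strand): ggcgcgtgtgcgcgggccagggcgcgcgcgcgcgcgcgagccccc

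In IGFBP4 the word began 29 bases before the start, and in IGFBP3 30 bases before it. The windows differed in base content. GC was 79.7% in the IGF1R window, 78.7% in that of IGF2R and 78.3% in that of INSR. Among binding proteins it was 74.7% in IGFBP3, 74.0% in IGFBP4, 61.7% in IGFBP6, 59.0% in IGFBP5, and 55.3% to 70.0% in the 3 windows of IGFBP2. The median of all windows was 58.7%. Of the pair with the TATA word, IGFBP4 had higher and IGFBP3 lower values in siSHMT2. The level of IGFBP6, without the word, overlapped that of IGFBP4.

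The order of levels, per gene length, was set by IGFBP6 and IGFBP4. Mean FPKM over the 6 libraries was 186 for IGFBP6, 178 for IGFBP4, 7.57 for IGFBP7, 5.81 for IGFBP5, 4.21 for IGF2R, 2.51 for IGFBP3, 1.11 for IGF1R, 0.768 for INSR, 0.0814 for IGFBP2 and 0.00473 for IGF2. IGFBP6 and IGFBP4 overlapped in both groups and cannot be ordered. IGFBP7 and IGFBP5 overlapped in siNC and not in siSHMT2, and all other neighbours in this order were apart in both groups. IGFBP2 and IGF2 had at most 11 and 2 reads in a library, so the order of these 2 genes is not secure. The step from IGFBP4 to IGFBP7 was 23.5-fold. IGFBP4 and IGFBP6 together made up 93.2% to 96.4% of the summed FPKM of IGFBP1 to IGFBP7 in siNC libraries and 95.7% to 97.0% in siSHMT2 libraries.

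**Figure D1:**
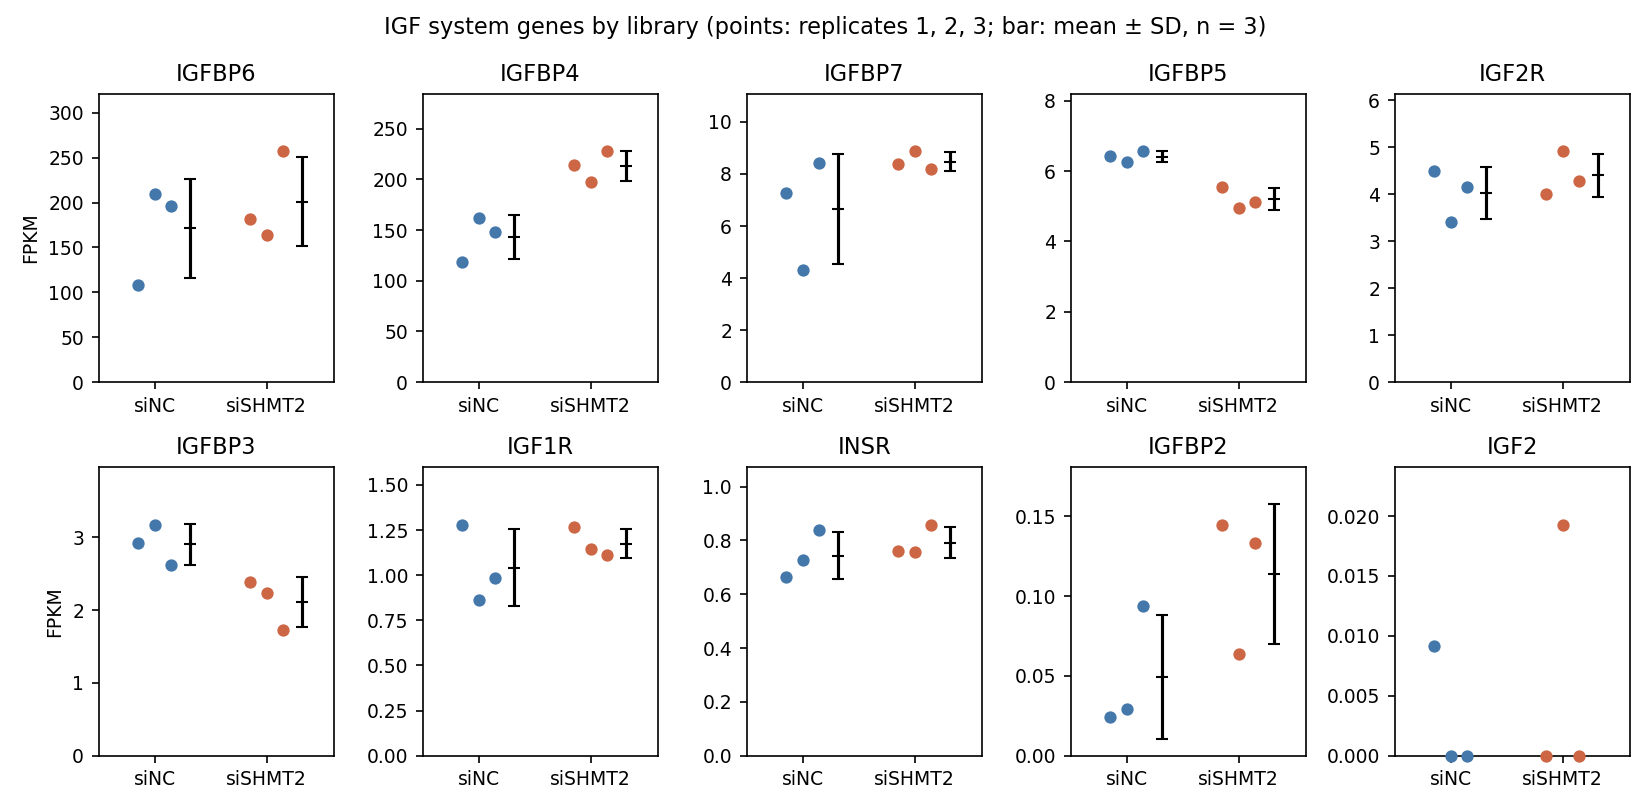
Deposited FPKM (vertical axis, linear, from 0, a separate scale for each gene) of the 10 IGF system genes in each siNC (blue) and siSHMT2 (orange) library; points are replicates 1, 2 and 3 from left to right and bars are the mean ± SD (n = 3), left out for IGF2, which has libraries at 0. The groups lie apart for IGFBP4, which is higher in siSHMT2, and for IGFBP5 and IGFBP3, which are lower, and overlap for the other 7 genes.

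Of the 10 genes, 7 had a mean of at least 1 FPKM and were tested. INSR, IGFBP2 and IGF2 lay below that filter and are given as values. The test was limma on log2(FPKM + 1) across all 10865 genes above the filter, with Benjamini-Hochberg adjustment over all of them and a threshold of 0.05. Fold changes are differences on that scale, and those of low genes come out too small on it. By this test 1 member was higher and 0 were lower, while 15.9% of all genes tested passed, 6.07% higher and 9.85% lower. At an unadjusted p under 0.05, IGFBP4 was higher and IGFBP3 and IGFBP5 were lower, as were 14.2% (higher) and 16.0% (lower) of all genes tested. Limma voom on the recovered reads called IGFBP4 alone, and 8.32% (higher) and 7.76% (lower) of all genes. With 7 genes tested, 1 call does not set the group apart from the rest of the table. The groups did not overlap in 3 of the 7, with siSHMT2 higher in 1 and lower in 2, and in 17.9% (higher) and 18.6% (lower) of all genes tested. The median log2 fold change of the 7 was 0.11, from -0.33 to 0.58, against 0.018 for all genes.

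Almost no ligand transcript was counted. IGF2 (ENSG00000167244, chromosome 11, 2129112 to 2141238, - strand) was at 0.00913 FPKM in siNC replicate 1 and 0.0193 in siSHMT2 replicate 2, from 1 and 2 reads, and was listed at 0 in the other 4 libraries. A count of 3 reads, the upper limit that a count of 0 allows, would have given 0.0274 to 0.0331 FPKM. The annotation limits what this value can show. In GENCODE release 29, 75.01% of the exon bases of IGF2 are shared with INS-IGF2, IGF2-AS, AC132217.1 or another gene entry also named IGF2. The sources used here do not say how reads in shared exons were assigned, so a low count need not mean a low transcript. Of the named overlapping genes, INS-IGF2 was listed at 0 in all libraries. IGF2-AS was at 0.339, 0.337 and 0.354 FPKM in siNC and 0.196, 0.210 and 0.243 in siSHMT2, from 9 to 17 reads. IGF1, the other ligand, had 0 reads in all 6 libraries, which allows up to 0.0211 to 0.0255 FPKM, and 82.4% of its exon bases are shared with HELLPAR.

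The signalling receptors were low, and their groups overlapped. IGF1R (ENSG00000140443, chromosome 15, 98648539 to 98964530, + strand) was at 1.28, 0.861 and 0.984 FPKM in siNC and 1.27, 1.15 and 1.11 in siSHMT2, from 174 to 312 reads. The siNC libraries spanned the siSHMT2 ones. The log2 fold change was 0.10 (SE 0.13, 95% interval -0.19 to 0.39, limma adjusted p = 0.657). A rise of up to 0.39 or a fall of up to 0.19 on the log2(FPKM + 1) scale lies within the interval. That scale makes changes of low genes too small, so the interval does not bound the change of the transcript. The value was 0.032 without siNC replicate 2, 0.17 with a pseudocount of 0.1 (SE 0.23) and 0.27 with voom (SE 0.21). INSR (ENSG00000171105, chromosome 19, 7112255 to 7294414, - strand) was at 0.665, 0.726 and 0.839 FPKM in siNC and 0.760, 0.757 and 0.858 in siSHMT2, from 114 to 147 reads, and the groups overlapped. IGF1R stood above INSR in every library, by 1.17 to 1.92 times. That ratio was 1.43 ± 0.430 in siNC and 1.49 ± 0.186 in siSHMT2 (SD, n = 3; exact permutation test, two-sided, p = 0.8, where 3 against 3 libraries cannot go below 0.1).

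IGF2R, the IGF2 uptake receptor (ENSG00000197081, chromosome 6, 159969099 to 160113507, + strand), was the most abundant of the 3 receptors. Its values were 4.50, 3.41 and 4.16 FPKM in siNC and 4.003, 4.91 and 4.27 in siSHMT2, from 881 to 1453 reads. The groups overlapped, and the log2 fold change was 0.11 (SE 0.12, 95% interval -0.17 to 0.38, limma adjusted p = 0.597). It was 0.015 without siNC replicate 2, 0.039 without siSHMT2 replicate 2 and 0.0087 with array weights. Its antisense gene AIRN was listed at 0 in all libraries.

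IGFBP4, a binding protein that sequesters IGFs and loses affinity for them when cut by the protease PAPPA, was higher in every siSHMT2 library. IGFBP4 (ENSG00000141753, chromosome 17, 40443450 to 40457725, + strand) was at 119, 162 and 148 FPKM in siNC and 214, 198 and 228 in siSHMT2, from 4580 to 7936 reads. The lowest siSHMT2 library lay above the highest siNC library. The mean went from 143 ± 22.0 to 213 ± 15.005 FPKM (SD, n = 3), 1.49 times the siNC level. The log2 fold change was 0.58 (SE 0.15, limma adjusted p = 0.0378), above the 95th percentile of all genes tested (0.54). The call did not hold when siNC replicate 3 was left out (adjusted p = 0.0755) or siSHMT2 replicate 1, 2 or 3 (0.142, 0.0936 and 0.148), or with no filter on low genes (0.108). The log2 fold change was 0.45 to 0.68 over all alternatives. None of its annotated exon bases is shared with another gene.

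IGFBP5, which also binds extracellular matrix, and IGFBP3, the main IGF carrier in blood, had lower values after siSHMT2. IGFBP5 (ENSG00000115461, chromosome 2, 216672105 to 216695549, - strand) was at 6.42, 6.26 and 6.56 FPKM in siNC and 5.56, 4.95 and 5.12 in siSHMT2, from 523 to 726 reads. The groups did not overlap. The log2 fold change was -0.26 (SE 0.088, 95% interval -0.46 to -0.05, limma adjusted p = 0.0913). In GENCODE release 29, 4.63% of its exon bases are shared with another gene. It passed the threshold under 1 of the 17 alternatives, limma array weights (adjusted p = 0.0290, log2 fold change -0.23). With each library rescaled to the same FPKM sum, the IGFBP5 log2 fold change was -0.20 (limma adjusted p = 0.402). With limma voom it was -0.22 (adjusted p = 0.288). IGFBP3 (ENSG00000146674, chromosome 7, 45912245 to 45921874, - strand) was at 2.93, 3.17 and 2.61 FPKM in siNC and 2.39, 2.23 and 1.73 in siSHMT2, from 125 to 234 reads, again without overlap. Its log2 fold change was -0.33 (SE 0.12, 95% interval -0.61 to -0.05, limma adjusted p = 0.109), and -0.18 with array weights (adjusted p = 0.197).

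The ratio of 2 genes within a library does not depend on the library's scaling. IGFBP4 exceeded IGFBP5 by 18.5, 25.8 and 22.6 times in siNC and by 38.5, 39.9 and 44.5 times in siSHMT2. The means were 22.3 ± 3.68 and 41.0 ± 3.14 (SD, n = 3). IGFBP4 exceeded IGFBP3 by 40.6, 51.0 and 56.8 times in siNC and by 89.5, 88.6 and 131.6 times in siSHMT2. These pairs were chosen after the values were seen, as 1 gene higher and 1 lower without overlap. The separation of their ratios therefore restates the values of each gene. The exact permutation test, two-sided, gave p = 0.1 for both pairs, the lowest that 3 against 3 libraries allow. The choice of pairs fixed that outcome, so no conclusion is drawn from it. Of the summed FPKM of IGFBP1 to IGFBP7, IGFBP5 made up 1.62% to 2.64% in siNC and 1.02% to 1.35% in siSHMT2. IGFBP3 made up 0.722% to 1.20% in siNC and 0.346% to 0.590% in siSHMT2.

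IGFBP6, a binding protein that prefers IGF2, varied more between libraries than between groups. IGFBP6 (ENSG00000167779, chromosome 12, 53097436 to 53102345, + strand) was at 108, 210 and 196 FPKM in siNC and 182, 164 and 257 in siSHMT2, from 2537 to 5472 reads. The low value of siNC replicate 1 remained when FPKM was recomputed from plain read sums (120, 201 and 199 in siNC). The log2 fold change was 0.26 (SE 0.28, 95% interval -0.39 to 0.91, limma adjusted p = 0.576). Without siNC replicate 1 it was -0.039 (adjusted p = 0.912), so the direction rests on that library, and array weights gave 0.025. The ratio of IGFBP4 to IGFBP6 was 1.10, 0.771 and 0.758 in siNC and 1.17, 1.21 and 0.885 in siSHMT2, and the groups overlapped.

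IGFBP7, a related secreted protein with low affinity for IGFs (ENSG00000163453, chromosome 4, 57030773 to 57110385, - strand), was at 7.26, 4.33 and 8.43 FPKM in siNC and 8.37, 8.87 and 8.19 in siSHMT2, from 121 to 284 reads. The siNC libraries were spread and the siSHMT2 libraries close together, and the groups overlapped. The log2 fold change was 0.35 (SE 0.20, 95% interval -0.11 to 0.80, limma adjusted p = 0.291), and 0.10 without siNC replicate 2 (adjusted p = 0.520) or 0.081 with array weights. In GENCODE release 29, 18.9% of its exon bases are shared with POLR2B, an RNA polymerase II subunit on the other strand, or IGFBP7-AS1. POLR2B was at 11.9, 5.80 and 7.77 FPKM in siNC and 7.96, 10.6 and 8.36 in siSHMT2. Both genes were lowest in siNC replicate 2, and the part of shared exons in this was not tested.

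IGFBP2, a binding protein prominent in fetal liver and many tumours (ENSG00000115457, chromosome 2, 216632828 to 216664436, + strand), was near the limit of detection. It was at 0.0241, 0.0291 and 0.0938 FPKM in siNC and 0.145, 0.0636 and 0.133 in siSHMT2, from 2 to 11 reads, and the groups overlapped. A difference was not detectable at this depth. IGFBP2 and IGFBP5 are neighbours that point toward each other, with 7668 bases and 0 genes of the table between them, yet mean FPKM of IGFBP5 was 71.3 times that of IGFBP2. IGFBP1, a binding protein made chiefly by hepatocytes, had 0 reads in all 6 libraries, which allows up to 0.104 to 0.126 FPKM.

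**Figure D2:**
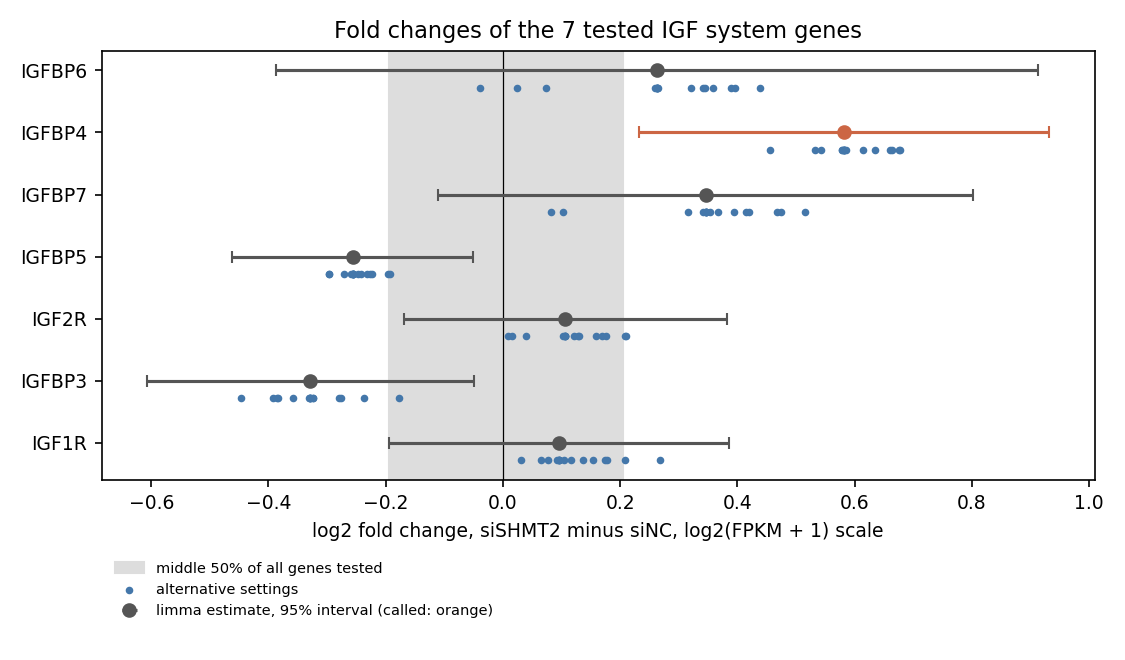
Log2 fold change (horizontal axis, siSHMT2 minus siNC on the log2(FPKM + 1) scale) of the 7 tested IGF system genes, with the limma 95% interval (n = 3 libraries per group); blue points are the alternative settings and the grey band holds the middle 50% of all genes tested. IGFBP4, in orange, is the called gene at 0.58, IGFBP5 and IGFBP3 lie at -0.26 and -0.33, and points of IGFBP6 fall on both sides of 0.

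Among changes in scaling, rescaling each library to the same FPKM sum (TPM) moved the median of all genes from 0.018 to 0.11, and limma voom on recovered reads to 0.10. Relative to the moved median of 0.11, IGFBP4 was at 0.57, IGFBP5 at -0.31, IGFBP3 at -0.43 and IGF1R at 0.10. The limma adjusted p with TPM was 0.402 for IGFBP5 and 0.314 for IGFBP3, and with voom 0.288 and 0.215. No scaling turned the direction of any of the 7 genes. The share of lower genes among all calls was 61.9%, and 47.5% with TPM, 48.3% with voom and 49.1% with plain read sums.

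The 3′ untranslated region (UTR) of 2 of the 10 genes, IGF1R and IGFBP5, held the words GACTTTA and ACTTTAA. Earlier results of these data had linked these words with lower fold change, so they were picked on the same values and test nothing here. The search covered the gene's strand of the longest annotated 3′ UTR in GENCODE release 29, and the words overlap in 6 letters. Either word was present in 24.6% of 9385 tested protein-coding genes, and in 60.7% of the 1103 with a 3′ UTR of at least 4000 bases. IGF1R (7088 bases), IGF2R (6420), INSR (4801) and IGFBP5 (4646) belong to that long class. The 4 sites, in IGFBP5 and IGF1R, are shown in the sense of the transcript with the word in capitals. The estimates of these 2 genes differ in sign, but neither passed the test and the interval of IGF1R spans both signs.

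IGFBP5 (chr2:216674930-216674958, - strand): ggagggtgctaGACTTTAgaagccagata
IGFBP5 (chr2:216672404-216672432, - strand): ttttgttttcaACTTTAAaaacaaaaata
IGF1R (chr15:98962891-98962919, + strand): ttctggggcatGACTTTAgcgttttgttt
IGF1R (chr15:98963449-98963477, + strand): ggagtgtagctACTTTAAcagatggaaag

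Each gene held 1 copy of each word, at separate places. IGFBP5, with log2 fold change -0.26, and IGF1R, with 0.10, both failed the test. IGFBP3, whose value was -0.33, held neither word in its 1605 bases, nor did IGFBP4 in 1148.

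Around the receptors and binding proteins, 57 other genes of IGF signalling were read from the same fit, of which 36 passed the filter. By limma 2 were higher and 3 lower, beside 6.07% and 9.85% of all genes, and their median log2 fold change was -0.0011. The called genes were the AKT kinases and 3 secreted or intracellular inhibitors.

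Among binding protein proteases and their inhibitors, 2 of 4 tested genes were called lower by limma, beside 9.85% of all genes. The other 2, HTRA1 and CTSD, did not pass. HTRA1 was higher in siSHMT2 without overlap (log2 fold change 0.30, limma adjusted p = 0.103). CTSD overlapped, with means of 162 FPKM in siNC and 158 in siSHMT2. STC2 and STC1 encode stanniocalcins, secreted glycoproteins that inhibit PAPPA. STC2 was at 26.7, 30.7 and 26.4 FPKM in siNC and 10.2, 11.7 and 11.3 in siSHMT2 and fell by 1.26 on the log2 scale (SE 0.11, limma adjusted p = 0.000432). STC1 was at 7.24, 8.42 and 10.1 FPKM in siNC and 5.49, 5.24 and 5.401 in siSHMT2 and fell by 0.58 (SE 0.12, limma adjusted p = 0.0175). The STC1 call did not hold without siSHMT2 replicate 1, 2 or 3 (adjusted p = 0.0702, 0.0715 and 0.0665) or with no filter (0.0650). PAPPA itself, the protease that cuts IGFBP4, lay below the filter at 0.153, 0.119 and 0.132 FPKM in siNC and 0.113, 0.0729 and 0.0546 in siSHMT2, from 10 to 31 reads. The PAPPA transcript was thus low in all libraries, and lower in each siSHMT2 library than in any siNC library, on 10 to 31 reads. That of its substrate IGFBP4 was higher in siSHMT2, and those of its inhibitors STC1 and STC2 were lower. A link between these values was not tested.

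Of 5 tested receptor substrates and adaptors, 0 passed the limma test (1, lower, at an unadjusted p under 0.05, beside 16.0% of all genes, and 0 by voom). IRS2, the insulin receptor substrate, was at 2.24, 1.92 and 1.605 FPKM in siNC and 1.26, 1.21 and 0.977 in siSHMT2, without overlap (log2 fold change -0.44, SE 0.13, limma adjusted p = 0.0532). It passed the threshold with protein-coding genes only (0.0268) and with no trend (0.0448). IRS1 was at 3.61, 2.45 and 2.46 FPKM in siNC and 2.48, 2.28 and 2.75 in siSHMT2 (log2 fold change -0.12, SE 0.14, limma adjusted p = 0.599), and its direction turned without siNC replicate 1 (0.015).

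The kinases AKT1 and AKT2 relay phosphoinositide 3-kinase signals from these receptors. They were the 2 genes called by limma, both higher, of 13 tested in that branch, beside 6.07% of all genes. AKT1 was at 11.03, 8.63 and 10.1 FPKM in siNC and 15.05, 18.2 and 15.6 in siSHMT2 and rose by 0.67 (SE 0.12, limma adjusted p = 0.0103). AKT2 was at 9.66, 9.33 and 10.5 FPKM in siNC and 12.3, 13.8 and 13.6 in siSHMT2 and rose by 0.40 (SE 0.10, limma adjusted p = 0.0302). The AKT2 call did not hold without siSHMT2 replicate 1, 2 or 3 (adjusted p = 0.0868, 0.124 and 0.127), with no filter (0.0552) or with TPM (0.0505). Among inhibitory adaptors and phosphatases 1 of 5 tested genes was called lower by limma, beside 9.85% of all genes. It was SOCS1, a suppressor of cytokine and insulin receptor signalling. SOCS1 was at 19.8, 22.9 and 22.3 FPKM in siNC and 9.62, 9.34 and 11.6 in siSHMT2 and fell by 1.02 (SE 0.12, limma adjusted p = 0.00144). In the same list PTPN1 (log2 fold change 0.49, limma adjusted p = 0.0591) and INPPL1 (0.37, 0.0668) were higher without overlap. At an unadjusted limma p under 0.05, 2 genes of the list were higher and 2 lower, beside 14.2% and 16.0% of all genes. Voom called PTPN1 and INPPL1 higher and SOCS1 lower, beside 8.32% and 7.76% of all genes. Of 8 tested genes of precursor processing, sorting and degradation, 0 passed the limma test (1 higher and 1 lower at an unadjusted p under 0.05, beside 14.2% and 16.0% of all genes, and 0 by voom). The 1 tested IGF2 mRNA-binding protein gene, IGF2BP2, did not pass either.

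**Figure D3:**
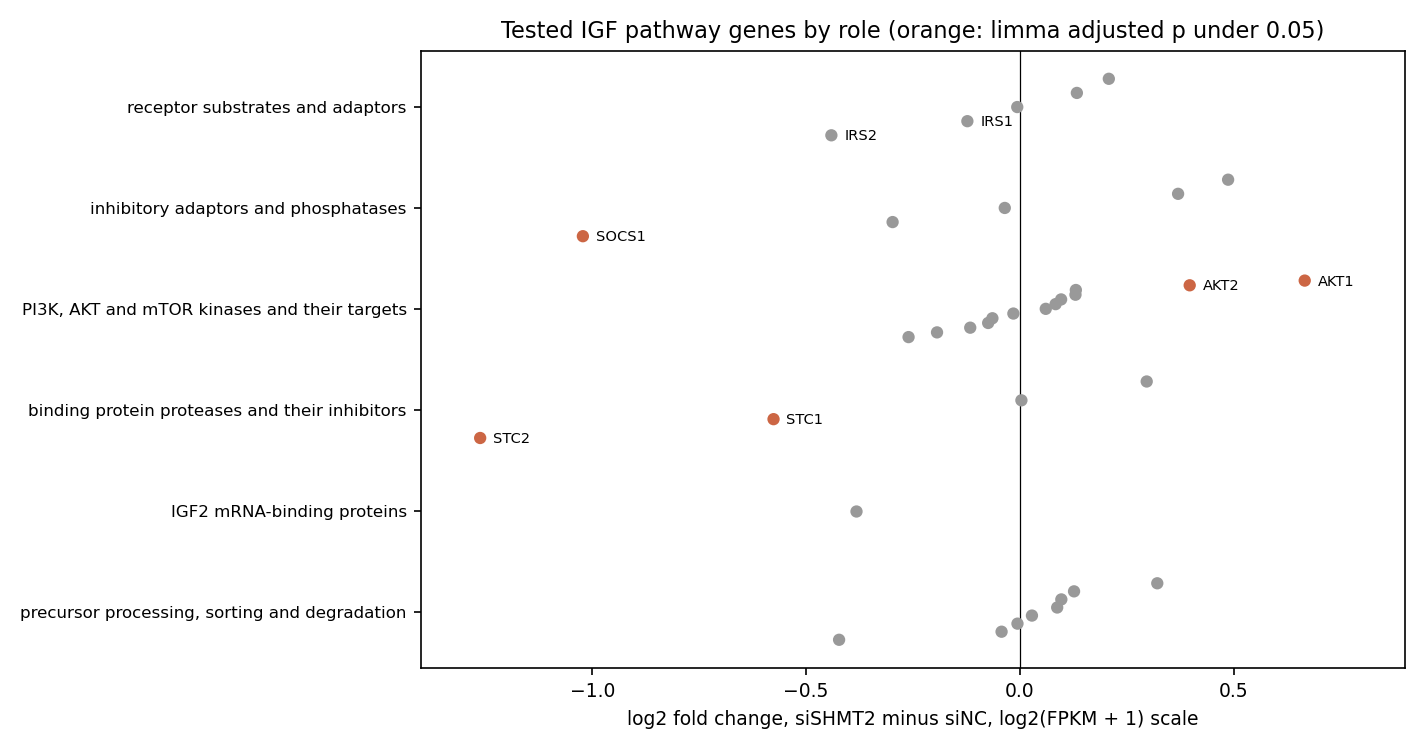
Log2 fold change (horizontal axis, siSHMT2 minus siNC on the log2(FPKM + 1) scale) of the 36 tested IGF pathway genes, 1 point per gene, in rows by role (vertical axis; height within a row only spreads the points). Orange points passed the limma test (n = 3 libraries per group): STC2, STC1 and SOCS1 at -1.26, -0.58 and -1.02, and AKT1 and AKT2 at 0.67 and 0.40.

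The protein-coding genes most like IGFBP4, IGFBP5 and IGFBP3 across the 6 libraries were named by Pearson's r of log2(FPKM + 1). They were EIF3F and UNC45A for IGFBP4 (r = 0.996 for each), ARHGEF17 and SLC29A1 for IGFBP5 (0.995 and 0.990) and CDAN1 and PTP4A2 for IGFBP3 (0.990 and 0.987). The libraries share the difference between the groups and their depth, and likeness of this kind was common. Of 9488 other tested protein-coding genes, 545 had r of at least 0.9 with IGFBP4, 525 with IGFBP5 and 193 with IGFBP3.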

How the data were processed

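The authors deposited 1 table of FPKM values per gene for the 6 libraries, with gene coordinates and lengths per the file headers. The tools named, per the submitters' processing notes, are the aligner HISAT2 (2.0.5) and the read counter featureCounts (1.5.0-p3), and the build is hg18. The coordinates match GRCh38 instead (of 58516 identifiers shared with GENCODE release 29, 99.8% overlapped on the same chromosome). The sources used here do not say whether strand was used. A gene and its antisense partner therefore cannot be told apart by reads in exons that they share. FPKM times gene length came in whole multiples of 1 step per library (100% of values above 0, within 0.02), which gave back the reads; the authors' scaling totals were 0.957 to 1.13 times the read sums.

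Genes with a mean of at least 1 FPKM were tested on log2(FPKM + 1) by limma (3.58.1, R 4.3.3) with an intensity trend. Ratios were compared by exact permutation tests in scipy 1.17.1. The fit was also run on simulated reads drawn with the same dispersion in both groups. Over the genes tested, the median SD was 0.191 in siNC and 0.105 in siSHMT2. The simulated run therefore cannot show how the fit handles unequal spread. The members and gene lists were chosen with earlier results of these data known. Named genes were all 10 members, SHMT2, IGF1, IGFBP1, IRS1, IRS2, PAPPA, STC1, STC2, up to 2 called genes per role, genes overlapping members, and the 2 genes most like each of the 3 members with the smallest adjusted p. Alternatives covered the pseudocount, filter, scaling, biotype, trend, array weights, replicate block, voom on recovered reads and leaving out each library. FPKM from plain read sums was added after seeing the data. So was the naming of PTPN1, INPPL1, HTRA1 and CTSD.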

Additional observations from a re-analysis of the deposited data

How the results depend on the processing

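SHMT2 stayed called under all 17 alternatives, with log2 fold changes from -4.32 to -3.75 (-3.98 to -3.75 leaving out 1 library). Over all genes, 659 were higher and 1070 lower. The counts were 333 and 603 with no filter, 1827 and 1976 with array weights, and 374 and 696 with the replicate block. Lower genes numbered 618 at a mean of at least 5 FPKM and 620 with TPM. Leaving out 1 library gave 229 to 729 higher and 498 to 1132 lower. Among the 10 IGF genes, the 1 call (IGFBP4) became 0 with no filter, and 0 with the replicate block (adjusted p = 0.0945), and was 0 or 1 leaving out a library. Array weights called 1 lower (IGFBP5). No library left out gave a lower call (0 in each). The 2 higher calls of the pathway became 1 with no filter, TPM or the replicate block, 6 with array weights and 4 with voom, and ran from 1 to 4 leaving out a library. The 3 lower calls became 6 with array weights and ran from 2 to 4 leaving out a library. Without siNC replicate 1 the directions of IGFBP6 (-0.039) and IRS1 (0.015) turned; they ran from -0.039 to 0.44 and from -0.19 to 0.015 leaving out a library. The cause of these changes was not tested.

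The shared replicate numbers did not pair the libraries: deviations of same-numbered libraries correlated at -0.018, -0.349 and 0.243 for numbers 1, 2 and 3. Besides IGFBP4, the replicate block ended the AKT2 call (adjusted p = 0.0840) among the named genes. Depth limits IGFBP2 and IGF2, with at most 11 and 2 reads in a library.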

Other observations

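PIK3R2, which encodes a regulatory subunit of phosphoinositide 3-kinase, was listed at 0 in all 6 libraries. In GENCODE release 29, 87.2% of its exon bases are shared with AC007192.1. GRB10, an adaptor that restrains IGF1R and INSR, had at most 2 reads in a library, and 0 of its exon bases are shared with another gene. IGFBPL1, a protein related to the binding proteins, was listed at 0 in the 3 siNC libraries and at 0.0525, 0.0677 and 0.0532 FPKM in the siSHMT2 libraries, from at most 4 reads. These genes lay below the filter and were not tested, and were picked here after their values were seen.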
